A study of Caenorhabditis elegans with 20 samples.

Results

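RNA recovered with AIN-1 from mixed-stage wild-type N2 worms was compared with total RNA of the same strain, to ask which mRNAs were more or less abundant in the AIN-1 immunoprecipitate (IP) than in that total RNA. The comparison holds 5 of the 20 samples of the series, chosen by their labels. They are 3 samples of RNA from AIN-1 immunoprecipitates of N2 worms (labelled Cy3, Cy5 and Cy3 in replicates 1 to 3) and 2 samples of total RNA of N2 worms (Cy3 and Cy5). Values of 3 immunoprecipitates made from N2 worms with preimmune serum are given beside them as the background, and the total RNA of 6 samples of 2 transgenic strains (AIN-2::GFP, and GFP under the ain-2 promoter) serves as a separate measure of each gene's level. N2 is the laboratory wild type of Caenorhabditis elegans, and of the groups named so far only those 6 samples carry a transgene, and none a mutation. The AIN-2::GFP and GFP immunoprecipitates of the series, whose target is a transgene product, enter the fit through its spread and dye term. Whole worms of mixed stages were used, so every value averages over tissues, stages and embryos. The series text calls the samples independent biological replicates.

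AIN-1 is a GW182-family protein. Such proteins bind the Argonaute that carries a microRNA and recruit deadenylation and decay factors to the mRNA that the microRNA pairs with, so RNA bound to AIN-1 holds candidate microRNA targets. In worms the microRNA pathway is best known for the heterochronic genes, which time larval development of the epidermis. An immunoprecipitate also carries RNA that sticks without being bound, and the preimmune serum samples show the relative make-up of that background.

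The array held 23232 spots, of which 17461 were paired with 1 gene (16378 genes), and 12222 of these spots (11812 genes) passed a filter on low signal. Mean spot signal was 907, 629 and 808 scanner units in the AIN-1 IP, 9, 40 and 47 in the preimmune IP, and 472 and 800 in N2 total RNA. The AIN-1 IP and total RNA thus overlapped in brightness, and the preimmune IP was dim. Gene spots above the background limit (the median plus 2 median absolute deviations of the chemoreceptor spots) made up 51.8% to 52.2% of all in the AIN-1 IP, 10.2% to 28.2% in the preimmune IP, and 57.3% and 61.8% in N2 total RNA. Rank correlation across the tested spots was 0.915 to 0.916 between AIN-1 IP samples and 0.935 between the N2 samples. Markers of muscle, intestine, germline and neurons were above the limit in all N2 samples for 8 of 8, 8 of 8, 8 of 8 and 5 of 5 tested genes, which fits the label of whole worms. Hypodermis markers were above it for 5 of 5 and sperm markers for 4 of 6. The sperm markers spe-9 and gsp-3 and the neuronal marker unc-31 were below it in both N2 samples. Signals below are quantile normalized and given in sample means, so that 1 is about the mean spot of a sample, and 0.0187 is the floor to which lower values were raised. Quantile normalization gave all 20 samples the same distribution. A preimmune value therefore gives the standing of a spot within a dim sample and not an amount of RNA. All differences are log2 AIN-1 IP minus N2 total RNA with the standard error (SE) of the limma fit, n = 3 and 2, and p-values are adjusted over all tested spots. The fit took its spread from all 20 samples, so the SE and p-values also draw on the spread within the other groups, the dim preimmune IP among them. With so few arrays, all values have limited precision.

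The AIN-1 IP differed from N2 total RNA in both directions. Of the tested spots 1437 (11.8%) passed the adjusted threshold of 0.05, 746 higher (6.1%, 743 genes) and 691 lower (5.65%, 678 genes), and 3221 had an unadjusted p under 0.05. The median difference over all tested spots was 0.11. In 1435 of the 1437 the 5 samples did not overlap, against 65.5% of all tested spots (34.6% with all AIN-1 IP samples higher and 31% with all lower). All 1437 had the same sign within Cy3 and within Cy5, as spots without overlap must, so this adds no separate check for those 1435. Among the rises 727 were above the background limit in all AIN-1 IP samples, and 166 of these were above it in neither N2 sample. Among the falls 690 were above the limit in both N2 samples, and 236 of these were above it in no AIN-1 IP sample.

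The preimmune IP against the same N2 samples gave 476 rises (3.89%) and 1121 falls (9.17%), with a median difference of -0.41. Of the 746 AIN-1 IP rises 145 were also called higher in the preimmune IP, and of the 691 falls 429 were also called lower. Both comparisons use the same 2 N2 samples, so their values are given side by side and not as 2 independent results. Each call was also made without each of the 5 samples in turn, and 62 rises and 136 falls kept their call in all 5 of these fits. Of those, 49 rises and 131 falls also passed with a covariate for a set of arrays in which asp-6 was bright.

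The genes T27E4.7 and asp-6 were bright in both immunoprecipitates and at the floor in N2. The protease gene asp-6 had 3.84, 1.02 and 4.25 in the AIN-1 IP, 3.64, 0.339 and 13.2 in the preimmune IP, and the floor in both N2 samples (at least 52.8-fold higher in the AIN-1 IP, adjusted p = 0.0462). T27E4.7 had 24.4, 14.5 and 20.7 in the AIN-1 IP, 1.92, 1.26 and 1.95 in the preimmune IP, and the floor in N2 (at least 402-fold higher, adjusted p = 0.0104). Neither call held in every leave-one-out fit (adjusted p up to 0.257 for asp-6 and 0.106 for T27E4.7). Both genes were above the limit in all samples of both immunoprecipitates and in neither N2 sample. The spots of asp-6 and T27E4.7 were also bright in the immunoprecipitates AIN-2::GFP replicate 1 and GFP replicate 1. These samples and all AIN-1 and preimmune IP samples were taken as 1 set, chosen after the values of these spots were seen, so the fit with the set is not a test of asp-6 or T27E4.7. All AIN-1 IP samples lie in that set and both N2 samples outside it, so among the 5 samples alone the set and the groups cannot be told apart. The covariate was estimated from the other immunoprecipitates, and with it 157 spots were called higher and 411 lower.

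**Figure D1:**
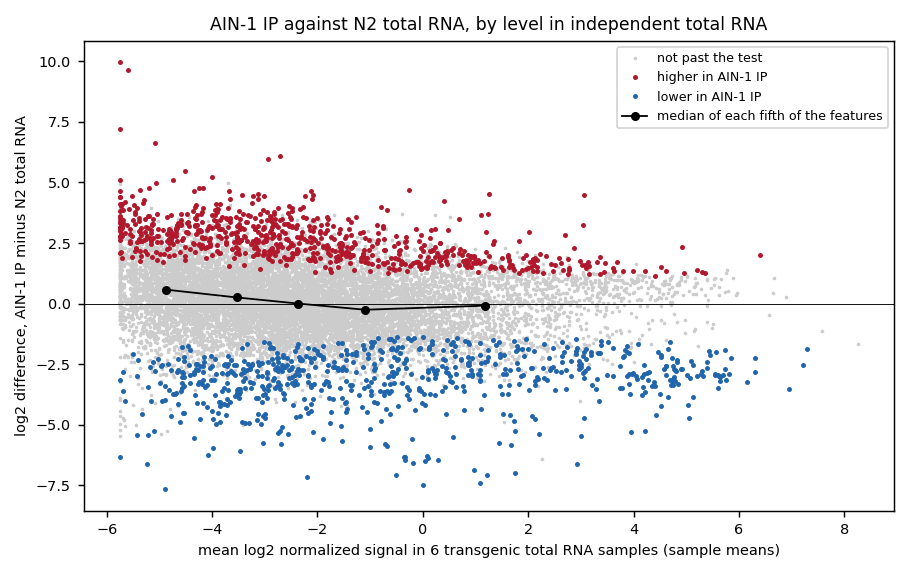
Log2 difference of each tested spot between the AIN-1 IP and N2 total RNA, against its mean log2 normalized signal in 6 total RNA samples of transgenic worms that are not part of the difference. Red points are the 746 rises, blue points the 691 falls, and the black line joins the medians of 5 equal groups of spots by level, which lie between -0.26 and 0.58.

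Rises were spread over all levels and falls were most frequent among abundant mRNAs. By level in the transgenic total RNA, the lowest quintile of the spots had 7.44% higher and 2.82% lower, and the highest quintile had 7.03% higher and 12% lower. The middle quintiles had 4.58% to 6.1% higher and 4.17% to 4.79% lower. The median difference was 0.58 in the lowest quintile and -0.09 in the highest, and the plot of difference against level shows the same points one by one. Shares of a gene list are therefore set below against all genes tested and, where the list is abundant, against the highest quintile.

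The potassium channel gene twk-28 was among the rises that kept their call in every leave-one-out fit. It had 0.933, 0.984 and 0.959 in the AIN-1 IP, 0.0187, 0.0599 and 0.176 in the preimmune IP, and 0.0187 and 0.035 in N2 total RNA, where it was not well above background. The AIN-1 IP was at least 19.8-fold above N2 (adjusted p = 7.87e-04), as a fold against the background limit. The gene bus-28, named for mutants that change how bacteria attach to the worm surface, had 0.751, 1.99 and 0.889 in the AIN-1 IP, 0.248, 0.187 and 0.0432 in the preimmune IP, and 0.0474 and 0.0339 in N2. It was at least 22.7-fold higher (adjusted p = 0.00248), and missed the threshold with the array set (adjusted p = 0.0865).

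The linker histone gene hil-3 stood out by its level. It reached 225, 225 and 124 sample means in the AIN-1 IP, against 11.1, 5.35 and 9.24 in the preimmune IP and 8.8 and 7.9 in N2 total RNA, a rise of 4.48 ± 0.60 (SE, adjusted p = 4.88e-04). The preimmune samples lay on both sides of the N2 samples and the AIN-1 IP samples far above both. Under mean scaling the rise of hil-3 was 3.07 (adjusted p = 0.00208), and it kept its call with the array set (adjusted p = 0.016).

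The insulin-like peptide gene ins-11 had 3.98, 4.8 and 5.02 in the AIN-1 IP, 0.248, 0.402 and 0.47 in the preimmune IP, and 0.261 and 0.156 in N2, a rise of 4.42 ± 0.75 (adjusted p = 0.00205). With the array set ins-11 missed the threshold (adjusted p = 0.0678). The gene iglr-1, which codes for a protein with immunoglobulin and leucine-rich repeat domains, had 0.864, 0.951 and 0.689 in the AIN-1 IP and at most 0.0523 in N2, with all 3 preimmune samples at the floor (4.71 ± 0.56, adjusted p = 2.56e-04). In both genes all preimmune samples were below all AIN-1 IP samples. The claudin gene clc-1 differed from these: it had 4.19, 6.13 and 5.34 in the AIN-1 IP, but also 6.14, 1.67 and 3.51 in the preimmune IP, against 0.298 and 0.285 in N2. Its difference was 4.22 ± 0.54 in the AIN-1 IP (adjusted p = 3.9e-04) and 3.42 in the preimmune IP (adjusted p = 0.00137).

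The other rises in this group of 15 were gtnt-2, the Wnt effector gene pop-1, the nuclear hormone receptor gene nhr-116, the fatty acid elongase gene elo-7, the potassium channel regulator gene sup-18, the neurotransmitter symporter family gene snf-8, the leucine-rich repeat gene lron-11, gtnt-10 and the methyltransferase family gene anmt-3. Of these, gtnt-2, pop-1, nhr-116, elo-7, snf-8 and gtnt-10 were above the background limit in neither N2 sample and were at least 5.45- to 11.8-fold higher, while sup-18, lron-11 and anmt-3 rose by 4.10, 3.86 and 3.66. The gene sup-18 had 2.05, 2.1 and 1.79 in the AIN-1 IP, 0.0187, 0.0916 and 0.144 in the preimmune IP, and 0.118 and 0.103 in N2. The gene pop-1 was at least 11.8-fold above N2 (adjusted p = 0.0012), yet it was also higher in the preimmune IP (3.87, adjusted p = 0.00265), and against the transgenic total RNA its difference was 1.22 (adjusted p = 0.134).

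Cuticle collagen genes made up 11 of the 15 falls that the naming rule reached by size. That rule takes symbols of a fixed form and so passes over 2 translation factor genes with fitted differences as large, described below with their list. The collagen gene col-98 had 0.149, 0.044 and 0.0187 in the AIN-1 IP, 0.0187, 0.0426 and 0.0654 in the preimmune IP, and 8.38 and 9.54 in N2 total RNA, a difference of -7.51 ± 0.82 (adjusted p = 1.32e-04). The gene col-117 had 0.229, 0.0812 and 0.228 in the AIN-1 IP, 0.121, 0.221 and 0.436 in the preimmune IP, and 25.1 and 30 in N2 (-7.41 ± 0.76, adjusted p = 8.73e-05). For both genes the immunoprecipitates lay far below total RNA and at or near background. Outside the collagens the group held ram-2, the glycolytic enzyme gene tpi-1 (-6.49 ± 0.97, adjusted p = 8.49e-04) and the mitochondrial ATP carrier genes ant-1.3 and ant-1.4. The gene ant-1.3 had 1.22, 0.546 and 0.942 in the AIN-1 IP, 1.92, 1.23 and 2.06 in the preimmune IP, and 48.3 and 31.1 in N2 (-5.47 ± 0.52, adjusted p = 6.07e-05).

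**Figure D2:**
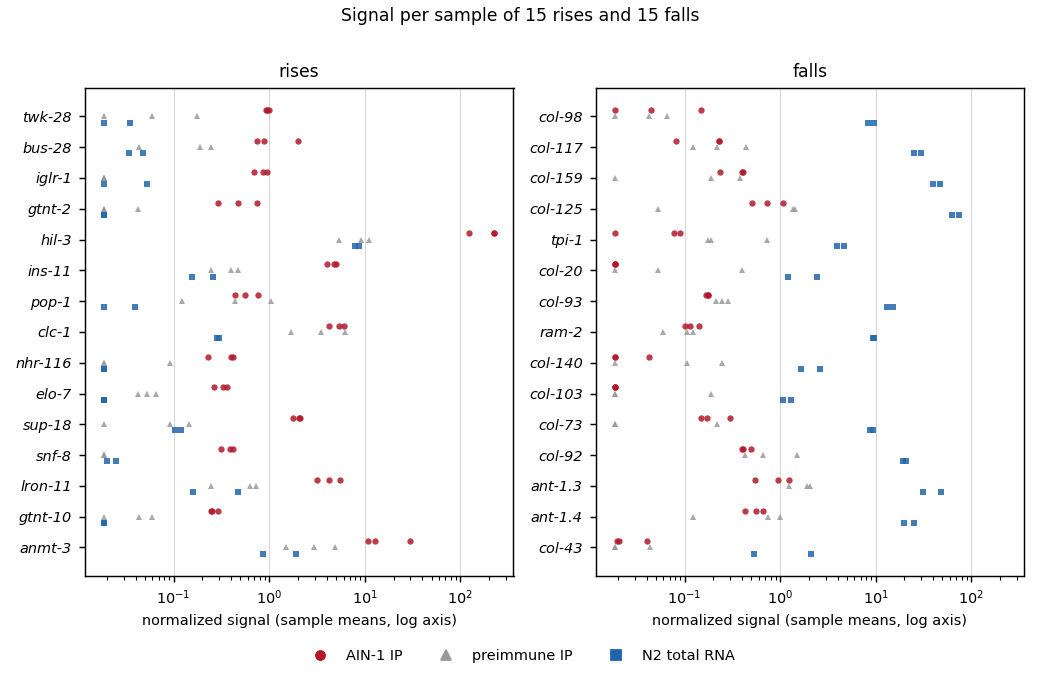
Normalized signal in sample means (log axis) of the 15 rises and 15 falls that the naming rule reached by size among genes that kept their call in every leave-one-out fit, with 1 point per sample of the AIN-1 IP (red circles), the preimmune IP (grey triangles) and N2 total RNA (blue squares). The AIN-1 IP and N2 samples do not overlap in any of the 30 genes. The range of the preimmune samples overlaps that of the AIN-1 IP samples in 2 of the 15 rises, clc-1 and pop-1, and in 12 of the 15 falls.

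Described microRNA targets lay above 0 without exception among those tested, although few passed the test. The list holds genes reported as microRNA targets in worms, of which 15 were on the array and 13 were tested. Its members lin-14, lin-28, lin-41, daf-12, nob-1 and sup-26 had no single-gene spot, and cog-1 and unc-63 did not pass the filter. All 13 had all AIN-1 IP samples above both N2 samples, against 34.6% of all tested spots, and 2 passed the test, hbl-1 and dbl-1, against 6.1%. The median difference was 1.11, against 0.12 over all genes tested, and in the preimmune IP the median of these genes was -0.15.

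The Hunchback-like gene hbl-1, a heterochronic regulator of the larval epidermis and a target of the let-7 family, had 3.25, 3.51 and 2.4 in the AIN-1 IP, 0.728, 1.19 and 0.525 in the preimmune IP, and 0.529 and 0.524 in N2 total RNA. It rose by 2.48 ± 0.51 (adjusted p = 0.00644). The TGF-beta ligand gene dbl-1 had 2.12, 2.07 and 2.6 in the AIN-1 IP, 2.33, 1.6 and 1.53 in the preimmune IP, and 0.856 and 0.776 in N2 (1.45 ± 0.44, adjusted p = 0.0433), so that its preimmune and AIN-1 IP samples overlapped. The call of hbl-1 was lost without N2 replicate 1 (adjusted p = 0.0921) or 2 (adjusted p = 0.0613) and that of dbl-1 without any 1 of the 5 samples (adjusted p up to 0.232), and neither passed with the array set (adjusted p = 0.147 for hbl-1 and 0.141 for dbl-1).

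Of the 11 targets that did not pass, the TGF-beta receptor gene daf-1 had 0.466, 0.492 and 0.67 in the AIN-1 IP, 0.0187, 0.0916 and 0.0187 in the preimmune IP, and 0.126 and 0.122 in N2 (2.07 ± 0.68, adjusted p = 0.0623). The cell death activator gene egl-1 had a difference of 1.90 ± 0.85, and its preimmune value was -1.95. The Ras gene let-60, a let-7 target, had 8.79, 9.08 and 6.73 in the AIN-1 IP, 4.8, 7.95 and 4.82 in the preimmune IP, and 4.75 and 4.39 in N2 (0.80 ± 0.38, adjusted p = 0.197). The nicotinic receptor subunit gene unc-29 and the transcription factor gene mef-2, both described for miR-1 at the neuromuscular junction, had differences of 1.39 ± 0.84 and 0.78 ± 0.43. The metalloprotease gene zmp-1 and the cadherin gene cdh-3 had 1.61 ± 1.13 and 1.11 ± 0.41. The genes vav-1, pha-4, die-1 and elo-2 had differences between 0.51 and 0.86, each within 2 SE of 0.

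Of the heterochronic list 6 genes were on the array and 4 were tested: hbl-1, the zinc finger gene lin-29, which drives the larval-to-adult switch, the period homologue lin-42, and lin-66. All 4 had every AIN-1 IP sample above both N2 samples, against 34.6% of all tested spots, with a median difference of 1.33. The gene lin-29 had 2.9, 1.87 and 2.27 in the AIN-1 IP, 0.728, 1.67 and 1.42 in the preimmune IP, and 1.34 and 0.872 in N2 (1.02 ± 0.44, adjusted p = 0.155). Both lin-42 and lin-66 were dim, at 0.069 to 0.138 in the AIN-1 IP. Their differences of 1.30 and 1.37 turned to -0.58 and -0.04 under mean scaling, where the median of all tested spots was -0.99. The gene mab-10, which codes for the NAB cofactor that acts with LIN-29 and stands in none of the lists, had 1.2, 0.988 and 1.13 in the AIN-1 IP, 0.446, 0.521 and 0.339 in the preimmune IP, and 0.252 and 0.149 in N2. It rose by 2.45 ± 0.38 (adjusted p = 9.36e-04), kept its call without any 1 sample (adjusted p up to 0.0309) and passed with the array set (adjusted p = 0.0139), and its preimmune difference was 1.20 (adjusted p = 0.0463).

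**Figure D3:**
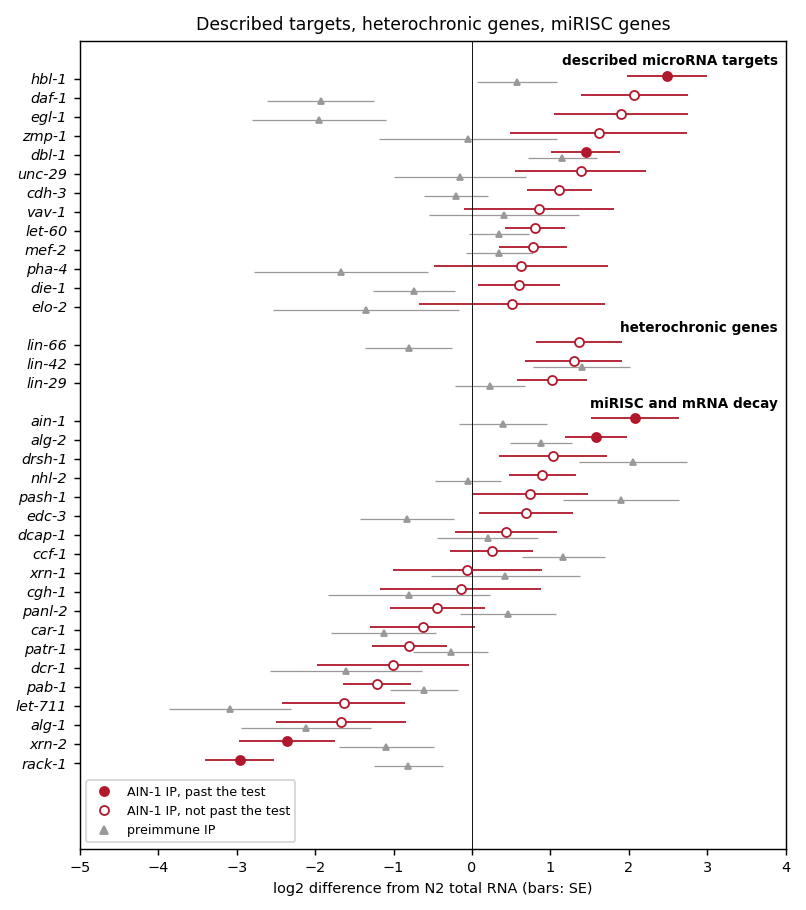
Log2 difference from N2 total RNA with its SE for described microRNA targets, heterochronic genes (hbl-1 is drawn once, among the targets) and genes of the microRNA silencing complex and mRNA decay, in the AIN-1 IP (red circles, filled where past the test) and the preimmune IP (grey triangles). The 13 targets and 3 further heterochronic genes lie between 0.51 and 2.48 in the AIN-1 IP, while the silencing and decay genes lie on both sides of 0.

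The machinery of microRNA silencing showed no common direction. Of 19 tested genes of the silencing complex and mRNA decay, 2 rose, 2 fell and the median was -0.15. These are shares of 10.5% each, against 6.17% higher and 5.4% lower among all genes tested. The mRNA of ain-1 itself had 3.74, 3.69 and 3.72 in the AIN-1 IP, 0.446, 1.76 and 1.57 in the preimmune IP, and 1.03 and 0.696 in N2 total RNA, a rise of 2.08 ± 0.56 (adjusted p = 0.0256). The Argonaute gene alg-2 had 1.52, 1.68 and 1.73 in the AIN-1 IP, 1.08, 1.07 and 0.825 in the preimmune IP, and 0.487 and 0.603 in N2 (1.58 ± 0.40, adjusted p = 0.0184). With any 1 of the 5 samples left out, ain-1 no longer passed (adjusted p up to 0.192, without N2 replicate 2). For alg-2 this held for AIN-1 IP replicates 2 and 3 and both N2 replicates (up to 0.225), and neither gene passed with the array set (adjusted p = 0.0908 and 0.177).

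The gene rack-1, a ribosome-bound scaffold, had 3.51, 5.01 and 3.62 in the AIN-1 IP, 12.8, 24.9 and 20.5 in the preimmune IP, and 33.4 and 30.7 in N2 total RNA. Its difference was -2.96 ± 0.44 (adjusted p = 8.47e-04), and it kept its call in every leave-one-out fit and with the array set (adjusted p = 0.0143). The exonuclease gene xrn-2 was at the floor in all AIN-1 IP samples and had 0.0983 and 0.11 in N2 (at least 1.31-fold lower, adjusted p = 0.021), and it did not pass with AIN-1 IP replicate 2 or an N2 replicate left out (adjusted p up to 0.218). The other Argonaute gene alg-1 was below the background limit in all AIN-1 IP samples, at 0.044 to 0.0756, against 0.187 and 0.204 in N2 (-1.67 ± 0.83, adjusted p = 0.216). The silencing cofactor gene nhl-2, the helicase gene cgh-1 and the poly(A)-binding protein gene pab-1 had differences of 0.90 ± 0.42, -0.15 ± 1.03 and -1.21 ± 0.43, none past the test.

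Cytosolic ribosomal protein mRNAs were the list with the lowest median. Of 67 tested genes 60 fell and 0 rose (62 lower and 0 higher at an unadjusted p under 0.05 in limma). The median difference was -2.95, with quartiles of -3.38 and -2.58. These mRNAs are among the most abundant of the worm, and 64 of the 67 lay in the highest quintile by level, where 60 fell (93.8%), against 12% of all genes of that quintile. The gene rps-4 had 6.46, 8.09 and 8.65 in the AIN-1 IP, 13.2, 23.6 and 23.7 in the preimmune IP, and 90.4 and 82.1 in N2 total RNA (-3.48 ± 0.44, adjusted p = 3.7e-04). The gene rpl-37A had 1.05, 1.15 and 1.95 in the AIN-1 IP, 5.22, 4.69 and 12.7 in the preimmune IP, and 47.4 and 61.3 in N2 (-5.28 ± 0.47, adjusted p = 5.41e-05). In both genes the preimmune samples lay between the AIN-1 IP and N2. Over the list the preimmune median was -1.32, and 20 of the 60 falls were also called there. The call held in every leave-one-out fit for 31 of the 60, with the array set for 42, under mean scaling for 45 and against transgenic total RNA for 60.

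Falls were also found among other genes of the translation and energy machinery, against 5.4% of all genes tested and 12% in the highest quintile. Of 57 translation factors and tRNA synthetases 9 fell (15.8%) and 0 rose (median -0.95, preimmune -1.43), and of the 29 in the highest quintile 6 fell (20.7%). The elongation factor gene eef-1B.1 had 0.184, 0.111 and 0.205 in the AIN-1 IP, 0.0187, 0.152 and 0.694 in the preimmune IP, and 20 and 21.1 in N2 total RNA (-7.02 ± 1.28, adjusted p = 0.00294). The related gene eef-1B.2 was above the limit in no AIN-1 IP sample and was at least 14.6-fold lower (adjusted p = 1.37e-04). Both kept their call in every leave-one-out fit, and both were named after their values were seen. The elongation factor gene eef-2 had 2.7, 1.68 and 3.17 in the AIN-1 IP, 4.43, 5.83 and 12.3 in the preimmune IP, and 25.5 and 27.2 in N2 (-3.42 ± 0.55, adjusted p = 0.00139). Of 57 mitochondrial ribosomal protein genes 7 fell (12.3%, median -1.01, preimmune -1.15), and none of these 7 calls held in every leave-one-out fit. Of 55 respiratory chain and ATP synthase genes 20 fell (36.4%) and 0 rose, with a median of -2.13 and a preimmune median of -1.90. The ATP synthase gene atp-3 had 2.49, 2.24 and 1.85 in the AIN-1 IP, 2.33, 2.9 and 2.97 in the preimmune IP, and 19.1 and 16 in N2 (-3.0 ± 0.40, adjusted p = 4.63e-04). Here the immunoprecipitates overlapped, unlike for rps-4 and rpl-37A, and 43 of the 55 genes lay in the highest quintile by level, 17 of which fell (39.5%).

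The proteasome, the vacuolar proton pump (V-ATPase) and the chaperones had medians closer to that of all genes, at -0.87, -0.40 and -0.21. Of 31 proteasome genes 3 fell (9.68%), rpt-6, pas-3 and pas-2, against 5.4% of all genes tested. In the highest quintile by level 2 of 25 proteasome genes fell (8%), against 12% of all genes there. The V-ATPase list of 20 genes held 1 rise (5%, against 6.17% of all genes tested), vha-12, which codes for a subunit of the cytosolic domain of the pump. It also held 2 falls (10%), the proteolipid genes vha-3 and vha-16. The gene vha-12 had 27.6, 44.8 and 25.4 in the AIN-1 IP, 4.43, 4.55 and 5.41 in the preimmune IP, and 4.81 and 4.1 in N2 (2.84 ± 0.43, adjusted p = 8.56e-04). That call held without any 1 sample, with the array set (adjusted p = 0.0269) and under mean scaling. Among 54 chaperone genes 5 fell (9.26%), such as the ER chaperone crt-1 (-1.58 ± 0.40, adjusted p = 0.0199). In the highest quintile 3 of 27 chaperone genes fell (11.1%), against 12% of all genes there. The DnaJ genes dnj-12 and dnj-13 (3.7% of the list) rose by 1.43 and 1.28, calls that did not hold in every leave-one-out fit. Likewise crt-1 did not pass with AIN-1 IP replicate 2 or an N2 replicate left out (adjusted p up to 0.232).

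Of the tested cuticle collagen genes 53 fell (37.3%, against 5.4% of all genes tested) and 1 rose, with a median of -1.83. They are made in the epidermis in a molt-linked rhythm. Of the 53 falls 23 held in every leave-one-out fit, 35 with the array set, 44 under mean scaling and 39 against transgenic total RNA, and 39 were also called lower in the preimmune IP, whose median was -1.53. The rise was that of col-75, with 0.638, 0.616 and 0.426 in the AIN-1 IP, 0.446, 0.402 and 0.558 in the preimmune IP, and 0.113 and 0.0758 in N2 (2.57 ± 0.56), a call that did not hold in every leave-one-out fit. In the highest quintile by level 24 of 52 collagen genes fell (46.2%), and below it 29 of 90 (32.2%, against 3.76% of all genes there). Near-identical genes, such as collagens, histones, yolk proteins and major sperm proteins, can share signal on a spotted probe, so single members are uncertain. The pharyngeal cuticle genes of the abu and pqn families, by contrast, had 0 calls among 46 genes (3 higher and 3 lower at an unadjusted p under 0.05 in limma) and a median of 0.00, with abu-7 at -2.49 ± 0.83 (adjusted p = 0.0656).

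Muscle, intestinal and yolk genes held more falls than rises. Of 22 muscle genes 8 fell (36.4%), of 53 intestinal genes 11 fell (20.8%) and 1 (asp-6) rose, and of 6 yolk protein genes 2 fell, against 5.4% of all genes tested. In the highest quintile by level 5 of 12 muscle genes (41.7%) and 9 of 23 intestinal genes (39.1%) fell, against 12% of all genes there. In whole-worm RNA, fewer cells of a type and less RNA per cell cannot be told apart. The actin gene act-3 had 4.76, 3.83 and 5.15 in the AIN-1 IP, 4.8, 10.4 and 13.1 in the preimmune IP, and 35.5 and 33.3 in N2 (-2.92 ± 0.48, adjusted p = 0.00149). The intestinal protease gene cpr-4 had 1.26, 0.601 and 0.874 in the AIN-1 IP, 0.728, 1.32 and 2.1 in the preimmune IP, and 27.3 and 20.5 in N2 (-4.78 ± 0.75, adjusted p = 0.00115). The AIN-1 IP medians were -1.73 for muscle, -1.16 for intestine and -1.69 for yolk, beside 0.12 for all genes, and the preimmune medians were -1.99, -1.70 and -2.91, beside -0.41. Against transgenic total RNA the AIN-1 IP medians of muscle and intestine were -0.24 and -0.62, beside -0.05 for all genes.

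Both yolk calls, vit-6 and vit-4, were fragile. The vit-6 call was lost without N2 replicate 2 (adjusted p = 0.0538) and under mean scaling (-1.71, adjusted p = 0.127). The vit-4 difference (-1.86 ± 0.53) passed in none of the 5 leave-one-out fits (adjusted p up to 0.28), and of its 3 tested spots 1 had the opposite sign. Of 60 germline and oocyte genes 6 fell (10%) and 1 rose (median -0.49), and of the 39 in the highest quintile 3 fell (7.69%), against 12% of all genes there. Among the falls were the translational regulator genes fbf-1, nos-2 and puf-5. Of 24 histone genes 1 rose, the linker histone his-24, with 74, 62.4 and 67.7 in the AIN-1 IP, 4.04, 4.5 and 8.43 in the preimmune IP, and 6.56 and 7.61 in N2 (3.25 ± 0.69, adjusted p = 0.00791), and 2 fell, his-61 and his-71. These histone counts are shares of 4.17% higher and 8.33% lower, against 6.17% and 5.4% of all genes tested. The his-24 call was lost without N2 replicate 1 (adjusted p = 0.104) or 2 (0.0631) and with the array set (0.2).

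Genes of ion channels and receptors of the nervous system lay on the high side. Of 61 ligand-gated channel genes 12 rose and 0 fell, of 66 neuropeptide receptor genes 12 rose and 0 fell, and of 45 potassium channel genes 7 rose and 0 fell. Their shares of 19.7%, 18.2% and 15.6% compare with 6.17% of all genes tested, and their medians were 1.28, 1.23 and 1.18. Their preimmune medians were -0.05, 0.36 and -0.16, and 0 of these 31 rises was called higher in the preimmune IP. All but 8 of the 172 genes lay below the highest quintile by level.

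The AMPA-type glutamate receptor gene glr-1 had 0.373, 0.717 and 0.472 in the AIN-1 IP, 0.053, 0.0916 and 0.0432 in the preimmune IP, and 0.0576 and 0.0519 in N2 total RNA (3.26 ± 0.64, adjusted p = 0.00483). The nicotinic receptor subunit gene lev-1 had 2.45, 2.67 and 1.6 in the AIN-1 IP, 0.0187, 0.152 and 0.0187 in the preimmune IP, and 0.165 and 0.145 in N2 (3.76 ± 0.76, adjusted p = 0.00576). The neuropeptide receptor gene npr-41 had 3.71, 5.04 and 4.91 in the AIN-1 IP, 0.446, 0.642 and 0.929 in the preimmune IP, and 0.617 and 0.437 in N2 (3.08 ± 0.45, adjusted p = 6.86e-04). In all 3 genes the preimmune samples lay below all AIN-1 IP samples. The glr-1 call was lost without N2 replicate 2 (adjusted p = 0.0794) and the lev-1 call without either N2 replicate (up to 0.0788), whereas npr-41 kept its call in every such fit and with the array set (adjusted p = 0.00793). Of the 12 rises among ligand-gated channels 0 held in every leave-one-out fit, 0 with the array set and 1 under mean scaling, while 10 held against transgenic total RNA.

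For pan-neuronal genes and the neuropeptides themselves the direction depended on the total RNA used. Of 22 neuronal genes 2 fell (9.09%, against 5.4% of all genes tested), the SNAP-25 gene ric-4 and the touch neuron tubulin gene mec-12, and 0 rose. The median was -0.23, and 0 of the 2 calls held in every leave-one-out fit. Of 99 neuropeptide genes 6 rose (6.06%) and 8 fell (8.08%), near the 6.17% and 5.4% of all genes tested (median -0.34). Against transgenic total RNA the medians were 0.05 and 0.23, beside -0.05 for all genes. There 11 neuropeptide genes were called higher and 3 lower, beside 905 and 913 of all 11812 genes. The fall of the neuropeptide gene nlp-47 to 0.0653 and the floor in the AIN-1 IP, against 0.944 and 1.02 in N2, was at least 12.4-fold (adjusted p = 1.32e-04). The gene flp-7 was at least 3.18-fold lower in the AIN-1 IP (adjusted p = 0.00885, and 0.0597 and 0.146 without AIN-1 IP replicate 2 and N2 replicate 2), whereas against transgenic total RNA its difference was 0.31 (adjusted p = 0.699).

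Chemoreceptor genes gave 49 rises (10.2%) and 3 falls (0.62%) among 482 tested, against 6.17% and 5.4% of all genes. Their median was 1.11, but their preimmune median was 0.99 and 27 of the 49 rises were also called in the preimmune IP. Of the 49 rises 3 held in every leave-one-out fit, 11 with the array set and 10 under mean scaling. Most chemoreceptor genes lie close to background in whole worms, and only 482 of 1194 on the array passed the filter. The chemoreceptor spots also set the background limit, so no statement about that limit is made for them. The receptor gene sra-17 had 1.14, 1.37 and 1.21 in the AIN-1 IP, 0.248, 0.339 and 0.436 in the preimmune IP, and 0.192 and 0.136 in N2 (2.91 ± 0.42, adjusted p = 6.44e-04). By contrast srab-18 had 0.175, 0.177 and 0.185 in the AIN-1 IP and 0.728, 0.312 and 0.275 in the preimmune IP, with both N2 samples at the floor.

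**Figure D4:**
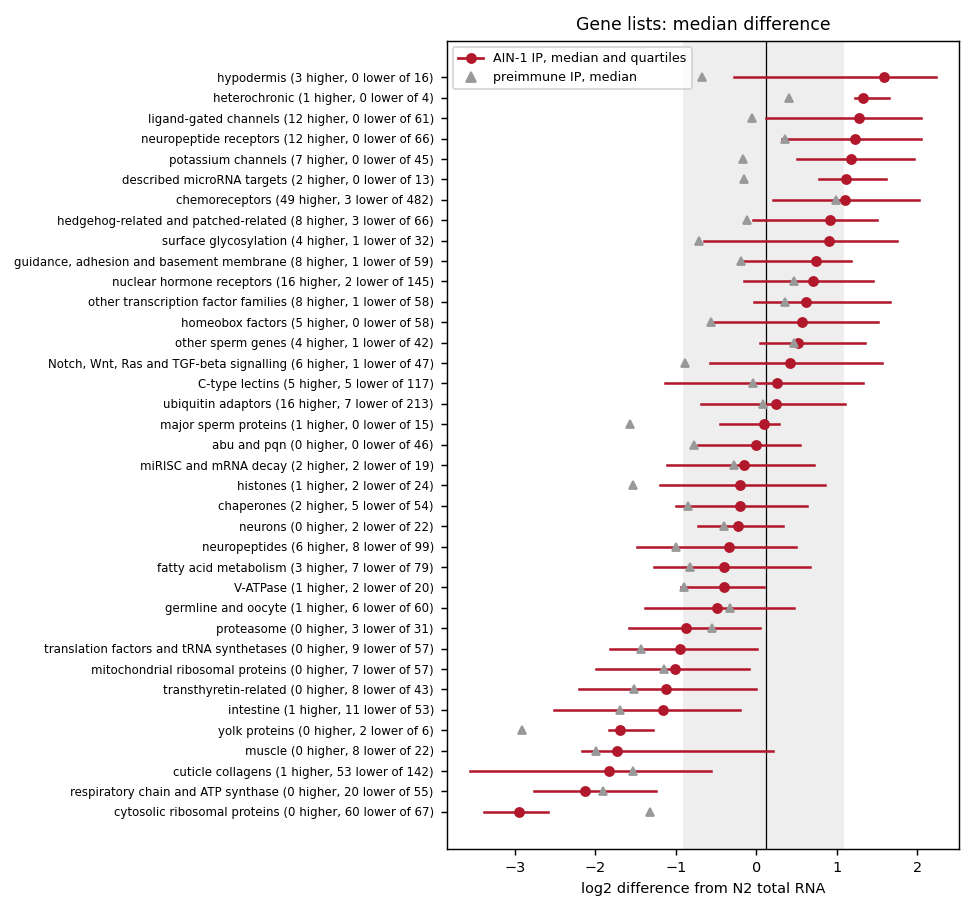
Median log2 difference of each of 37 gene lists from N2 total RNA, with red circles and bars for the AIN-1 IP median and quartiles, grey triangles for the preimmune IP median, and each label giving how many members rose and how many fell. The grey band and black line are the quartiles (-0.90 and 1.08) and the median (0.12) of all genes tested, and cytosolic ribosomal proteins lie lowest at -2.95.

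Transcription factor families and developmental signalling genes had more rises than falls in the main setting, and more falls than rises under mean scaling. The 145 nuclear hormone receptor genes held 16 rises and 2 falls (median 0.71), of 58 homeobox genes 5 rose and 0 fell (0.56), and of 58 genes of other families 8 rose and 1 fell (0.61). These rises are shares of 11%, 8.62% and 13.8%, against 6.17% of all genes tested. Under mean scaling the counts were 7 and 8, 1 and 5, and 1 and 3, beside 226 rises and 1679 falls over all genes, and with the array set the nuclear hormone receptors had 1 rise and 3 falls. The Mad-like gene mdl-1 had 41, 23.1 and 31.4 in the AIN-1 IP, 3.21, 3.28 and 5.94 in the preimmune IP, and 5.58 and 5.97 in N2 (2.44 ± 0.54, adjusted p = 0.0103). The forkhead gene unc-130, which acts in neuronal and epidermal patterning, had 2.14, 2.85 and 2.12 in the AIN-1 IP and 0.207 and 0.193 in N2, with preimmune values of 0.053 to 0.784 (3.49 ± 0.75, adjusted p = 0.00862). Both calls were lost without either N2 replicate (adjusted p up to 0.105), that of unc-130 also without AIN-1 IP replicate 2 (0.0545). The 1 fall, ets-9, had 0.0996 to 0.108 in the AIN-1 IP and 6.39 and 2.51 in N2 (-5.35 ± 0.79, adjusted p = 7.94e-04), but its difference from transgenic total RNA was -0.59 (adjusted p = 0.552).

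In the Notch, Wnt, Ras and TGF-beta pathways 6 of 47 genes rose (12.8%) and 1 fell (2.13%), against 6.17% and 5.4% of all genes tested. Under mean scaling 1 rose and 6 fell, beside 226 rises and 1679 falls among all 11812 genes. Relative to all genes the list median was 0.30 in the main setting and 0.55 under mean scaling. The rises in the main setting were pop-1, lin-12, smoc-1, lin-18, lin-1 and dbl-1, and the fall was glp-1. The Notch receptor gene lin-12, which sets cell fates in the gonad and vulva, had 0.409, 0.674 and 0.506 in the AIN-1 IP, 0.0187, 0.0187 and 0.0432 in the preimmune IP, and 0.0562 and 0.0631 in N2 (3.13 ± 0.53, adjusted p = 0.00197). The other Notch receptor gene, glp-1, was at the floor in all 3 AIN-1 IP samples, had 0.121, 0.0187 and 0.0187 in the preimmune IP, and 0.374 and 0.502 in N2, and was at least 5.46-fold lower (adjusted p = 0.00291). The TGF-beta modulator gene smoc-1 had 1.5, 1.1 and 1 in the AIN-1 IP, 0.053, 0.221 and 0.215 in the preimmune IP, and 0.131 and 0.0618 in N2 (3.68 ± 0.69, adjusted p = 0.00345). The calls of lin-12 and glp-1 held in every leave-one-out fit, that of glp-1 was lost with the array set (adjusted p = 0.109), and that of smoc-1 was lost without N2 replicate 2 (adjusted p = 0.0744). Under mean scaling lin-12 was just short of the threshold (2.20, adjusted p = 0.0531).

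Epidermal, surface and adhesion genes also lay high in the main setting. The hedgehog-related and patched-related, epidermal, adhesion and surface glycosylation lists had 12.1%, 18.8%, 13.6% and 12.5% higher, against 6.17% of all genes. Their falls were 4.55%, 0%, 1.69% and 3.1%, against 5.4%. Under mean scaling the rises and falls were 2 and 6, 1 and 4, 3 and 3, and 2 and 4. Over all genes they were 226 and 1679. In every leave-one-out fit 1, 0, 2 and 2 of the rises held. Of 66 hedgehog-related and patched-related genes 8 rose and 3 fell (median 0.91, preimmune -0.12), and the patched-related gene ptr-25 had 4.96, 4.25 and 3.43 in the AIN-1 IP, 1.92, 1.98 and 1.1 in the preimmune IP, and 1.07 and 0.931 in N2 (2.02 ± 0.41, adjusted p = 0.00584). Its call was lost without either N2 replicate (adjusted p up to 0.0826). Of 16 epidermal genes other than collagens 3 rose: che-14, a Dispatched-like sterol-sensing protein gene, the GATA factor gene elt-1, and the molting gene mlt-10, and 0 of the 3 calls held in every leave-one-out fit. The gene che-14 was at least 11.5-fold higher (adjusted p = 0.00237), with 0.31, 0.857 and 0.643 in the AIN-1 IP, at most 0.0426 in the preimmune IP, and 0.0268 and 0.0408 in N2. Its call was lost without N2 replicate 1 (adjusted p = 0.0512). The median of these genes was 1.58, and 0.49 with the array set, where 0 of the 3 passed.

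Of 59 guidance, adhesion and basement membrane genes 8 rose, 5 of them iglr and lron genes with leucine-rich repeats, and 1 fell, oig-3. The gene lron-11 had 5.45, 3.15 and 4.23 in the AIN-1 IP, 0.248, 0.725 and 0.631 in the preimmune IP, and 0.471 and 0.158 in N2 (3.86 ± 0.55, adjusted p = 6.43e-04). Of 32 surface glycosylation genes 4 rose (bus-4, bus-28, gly-15 and gly-20) and 1 fell (bus-5). The gene bus-4, a glycosyltransferase of the bacterial attachment pathway, had 1.13, 1.36 and 1.27 in the AIN-1 IP, 0.121, 0.152 and 0.144 in the preimmune IP, and 0.187 and 0.144 in N2 (2.91 ± 0.45, adjusted p = 0.00103). It kept its call in every leave-one-out fit and with the array set (adjusted p = 0.0391).

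Among the remaining lists 16 of 213 ubiquitin adaptor genes rose and 7 fell, 5 of 117 C-type lectin genes rose and 5 fell, and 3 of 79 fatty acid genes rose and 7 fell, with medians of 0.25, 0.26 and -0.40. The rises of 7.51% and 4.27% in the first 2 lists lie near the 6.17% of all genes. Under mean scaling their counts were 5 and 26, and 2 and 21, beside 226 rises and 1679 falls among all 11812 genes. The falls were 3.29%, 4.27% and 8.86% of the 3 lists, against 5.4% of all genes, and 3.8% of the fatty acid genes rose. Of 43 transthyretin-related genes 8 fell (18.6%, against 5.4% of all genes) and 0 rose (median -1.12, preimmune -1.52). The desaturase gene fat-2 had 0.768, 0.804 and 0.679 in the AIN-1 IP, 1.08, 2.13 and 2.18 in the preimmune IP, and 6.98 and 8.93 in N2 (-3.36 ± 0.43, adjusted p = 3.9e-04). The elongase gene elo-7 rose at least 6.54-fold (adjusted p = 8.63e-04). Of 15 major sperm protein genes 1 rose (msp-36), and of 42 other sperm genes 4 rose (gsp-4, ssp-9, spe-8 and spe-36) and 1 fell (ssp-19). These rises are shares of 6.67% and 9.52%, against 6.17% of all genes. Against transgenic total RNA 12 of the 15 and 12 of the 42 were called lower in the AIN-1 IP, beside 913 of all 11812 genes. The sperm phosphatase gene gsp-4 had 4.11, 4.17 and 4.54 in the AIN-1 IP, 0.446, 1.07 and 0.825 in the preimmune IP, and 0.938 and 0.559 in N2 (2.50 ± 0.45, adjusted p = 0.0028), a call that was lost without N2 replicate 2 (adjusted p = 0.0598).

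**Figure D5:**
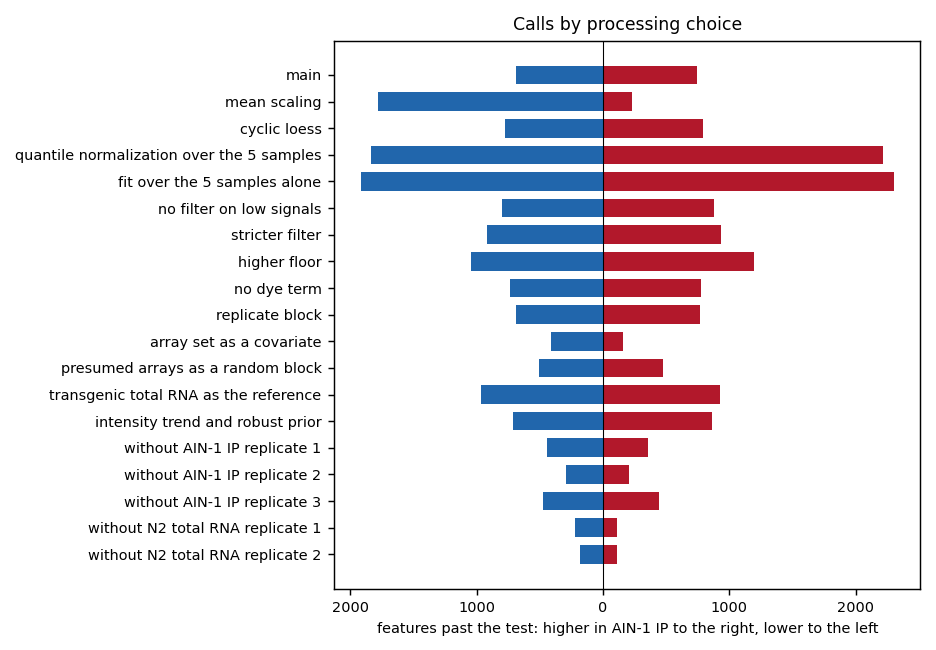
Number of spots called higher (red, to the right of 0) and lower (blue, to the left) in AIN-1 IP over N2 total RNA under each processing choice, with the setting used in the text in the top row at 746 and 691. The bars run between 110 and 2302 rises and between 180 and 1916 falls.

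Calls depended on the scaling and on the N2 samples, as the plot of calls by processing choice shows. Under mean scaling, which lowered the median difference of all spots to -0.99, 231 spots were called higher and 1784 lower, so that rises were 11.5% of the calls, against 51.9% in the main setting. Without N2 replicate 1 there were 115 rises and 221 falls, and without N2 replicate 2 there were 110 and 180. Of the 155 genes that the naming rule reached and the test called, 74 kept their call in every leave-one-out fit and 86 with the array set.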

How the data were processed

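RNA of 20 samples in 7 groups was hybridised to spotted arrays, and 5 samples (3 AIN-1 IP, 2 N2 total RNA) make up the comparison. The values deposited by the authors are spot intensity divided by the sample mean, as the values themselves show (every value times 1 constant per sample is whole within 0.001). The scanner, the image software and any background correction are not stated in the labels. Gene names came with the array's probe annotation, and 17371 of the 17461 single-gene spots matched RefSeq by gene number with 0 symbols changed.

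Values were quantile normalized over the 20 samples, floored at 0.0187 (32.5% of values, the 10th percentile of positive values) and taken as log2. Spots under the 30th percentile of mean signal were left out. limma 3.58.1 in R 4.3.3 was fitted with a mean per group and the dye as a covariate, two-sided, with Benjamini-Hochberg adjustment at 0.05 over 12222 spots. Figures were drawn with Python 3.11.15 and matplotlib 3.10.9. On simulated data of 12222 spots for this comparison the fit recovered 0%, 20%, 38% and 58% of changes of 1, 2, 3 and 4 on the log2 scale (50 each), with 4 false calls. The 200 changed spots had an N2 mean more than 3 log2 units above the floor, and all others were set to no difference between the groups. The real comparison had more calls and many values at the floor, so these figures give neither its recovery nor its number of false calls. A fold written "at least" sets the bright group against the background limit of the dim one.

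Named genes had a symbol of letters, a hyphen and a number, with or without a decimal part or a final capital, which left out eef-1B.1, eef-1B.2, eif-3.J and sequence names. They were the 15 largest fitted rises and 15 largest falls that kept their call in every fit without 1 sample and did not overlap, all genes of the target, heterochronic and silencing lists, up to 4 genes of each other list and up to 10 genes of no list per direction by adjusted p, a gene with several spots being represented by its brightest. Members named to fill a count, and asp-6, T27E4.7, eef-1B.1 and eef-1B.2, were named after their values were seen. 1 further gene is not reported here. The comparison and the 37 gene lists were chosen with earlier results of these data known, and some lists were completed after values were seen. Alternatives covered scaling, floor, filter, dye, samples in the fit, arrays as blocks, the total RNA used and each sample left out. Same-numbered AIN-1 IP and N2 samples did not deviate together (correlations of 0.0772 and -0.0204).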

Additional observations from a re-analysis of the deposited data

How the results depend on the processing

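Against 746 rises and 691 falls in the setting used, mean scaling gave 231 and 1784, quantile normalization over the 5 samples 2217 and 1836, a fit over the 5 samples alone 2302 and 1916, a higher floor 1199 and 1048, and the array set as a covariate 157 and 411. Leaving out 1 sample at a time gave 110 to 444 rises and 180 to 472 falls. The planned random block for the N2 samples alone could not be fitted, and a random block for presumed arrays, chosen after seeing the data, gave 477 rises and 504 falls. The replicate block gave 766 rises and 686 falls. The methods' t-test at p under 0.01 gave 2976 rises, 1278 after Benjamini-Hochberg adjustment. Cyclic loess, no filter, a stricter filter, no dye term, an intensity trend with a robust prior, and transgenic total RNA in place of N2 kept both counts within 1.5 times. The higher share of the calls was 51.9%, against 11.5% under mean scaling and 27.6% with the array set. Of 155 called named genes, all kept their sign in every setting except flp-7, which was 0.31 against transgenic total RNA. Calls were lost for 32 under mean scaling, 69 with the array set, 32 against transgenic total RNA, and 71 without N2 replicate 1 or without N2 replicate 2. Relative to all genes, the list medians of silencing factors, V-ATPase, chaperones, yolk proteins, major sperm proteins and histones turned sign under mean scaling, those of silencing factors and major sperm proteins with the array set, and those of V-ATPase, abu and pqn, neurons, neuropeptides, other sperm genes and ubiquitin adaptors against transgenic total RNA. The cause of these shifts was not tested. Signal near the background limit bounds what can be said of dim genes.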

Other observations

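Some further gene families lay outside the lists, beside 6.17% higher and 5.4% lower among all genes tested. They were picked by symbol prefix after their values were seen, so their counts are descriptions. Of 16 cutl genes, which code for cuticlin-like proteins, 5 rose, with a median difference of 1.61 in the AIN-1 IP and 0.11 in the preimmune IP. Of 6 lpr genes, which code for lipocalin-related proteins, 3 rose, with medians of 1.37 in the AIN-1 IP and 0.14 in the preimmune IP. Of 6 aat genes, which code for amino acid transporter subunits, 2 rose (median 1.95, preimmune -0.28), and of 13 mdt genes, which code for Mediator subunits, 2 rose (median 1.65, preimmune 0.32). Of 24 nas genes, which code for astacin proteases, 1 rose and 21 lay above 0, as did 6341 of all 11812 genes (median 1.16, preimmune 0.25). Of 30 gtnt genes 5 rose, but here the preimmune median of 0.98 was close to the AIN-1 IP median of 1.32.

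On the low side, 3 of 7 ctsa genes fell (median -2.08, preimmune -1.17), as did 3 of 9 nspc genes (median -1.68, preimmune -1.90) and 2 of 9 galectin genes of the lec family (median -1.45, preimmune -2.02). Of the linker histone genes, hil-3 and his-24 rose by 4.48 and 3.25, while hil-4 had 2.98, 5.76 and 4.17 in the AIN-1 IP and 3.15 and 4.7 in N2 total RNA, a difference of 0.12. Over the 5 tested hil genes 1 was called higher and 0 lower. Their median was 0.04 and their differences ran from -1.66 to 4.48.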
